A study of Mus musculus with 4 samples.

Results

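The genes described here encode the T cell receptor, its CD3 partners, the coreceptors and the regulatory T cell factor Foxp3, and they were taken from the deposited count table by name: Cd3e, Cd3d, Cd3g, Cd4, Cd8a, Cd8b1, Trac, Trbc1, Trbc2 and Foxp3. They are 10 of 49315 genes, and all 10 had reads in every library and passed the filter on low levels. The study sorted group 2 innate lymphoid cells (ILC2s) from mouse lung and sequenced their mRNA as 1 library in each of 4 groups. The PBS-WT and BLEO-WT libraries came from wild-type C57BL/6 mice given phosphate-buffered saline (PBS) or bleomycin, a drug that injures the lung and leads to fibrosis. The PBS-HPS1 and BLEO-HPS1 libraries came from mice with genotype HPS1, described by the study as Hps1-/-, a model of Hermansky-Pudlak syndrome, given the same treatments. The library labels gave no age, sex, time point or number of mice. The sorted cells lacked a lineage cocktail that included CD3, CD11b, B220, Ly76, Ly6G and Ly6C, carried Thy1.2, ICOS and T1/ST2, and were placed in culture with IL-2. The cells put into the libraries numbered 22405 for PBS-WT, 84166 for BLEO-WT, 38873 for PBS-HPS1 and 128647 for BLEO-HPS1. With 1 library in a group there was no replicate check, so every difference below is between 2 libraries and no test was made. The intervals are 95% exact intervals and cover counting error only, since amplified reads are not independent molecules.

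A T cell recognises peptides on other cells through a receptor made of variable chains, alpha with beta in most T cells and gamma with delta in a smaller lineage. These chains have almost no part inside the cell and depend on the CD3 gamma, delta and epsilon chains and on the zeta chain, whose tails pass the signal to kinases. Cd4 and Cd8 coreceptors bind the presenting molecule and separate helper from cytotoxic cells, and Foxp3 is the transcription factor that defines regulatory T cells. ILC2s come from lymphoid progenitors related to those of T cells and share many genes with them, but they respond to cytokines such as IL-33 and not to antigen.

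The regulatory and coding sequences of the genes with close neighbours are shown because 3 of them lie side by side and 2 are near copies. In GRCm38 (GENCODE M21), Cd3g lay on chr9:44969572-44980431 on the minus strand, Cd3d on chr9:44981786-44987339 on the plus strand and Cd3e on chr9:44998740-45009627 on the minus strand. The starts of Cd3g and Cd3d were 1355 bases apart and pointed away from each other, and the 3 genes fitted into 40056 bases. The 250 bases before each start, from RefSeq (GRCm38.p6), are written 5′ to 3′ on the gene's own strand, with matches to 5 short motifs in capitals. These motifs were an E box (CACCTG), and words found in sites for ETS (AGGAAG), RUNX (TGTGGT), TCF (TCAAAG) and GATA factors (AGATAA), each searched on both strands.
Cd3g, chr9:44980432-44980681: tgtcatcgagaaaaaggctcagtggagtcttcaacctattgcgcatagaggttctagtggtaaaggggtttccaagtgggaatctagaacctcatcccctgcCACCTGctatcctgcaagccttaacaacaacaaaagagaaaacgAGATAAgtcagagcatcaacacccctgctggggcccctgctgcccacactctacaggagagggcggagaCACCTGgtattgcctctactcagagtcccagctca
Cd3d, chr9:44981536-44981785: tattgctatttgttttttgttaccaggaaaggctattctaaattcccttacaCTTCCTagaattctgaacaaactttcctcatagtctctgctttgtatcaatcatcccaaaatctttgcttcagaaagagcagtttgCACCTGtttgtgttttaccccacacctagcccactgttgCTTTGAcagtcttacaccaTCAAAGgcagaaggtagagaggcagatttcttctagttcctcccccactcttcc
Cd3e, chr9:45009612-45009861: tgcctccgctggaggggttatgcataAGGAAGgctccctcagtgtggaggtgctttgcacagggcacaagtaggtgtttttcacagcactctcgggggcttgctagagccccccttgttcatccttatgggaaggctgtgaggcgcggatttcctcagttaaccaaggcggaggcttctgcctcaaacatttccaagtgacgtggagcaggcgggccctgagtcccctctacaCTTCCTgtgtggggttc
The Cd3g stretch held 2 E boxes and 1 GATA word. The Cd3d stretch held 1 E box, 1 ETS word and 2 TCF words, and the Cd3e stretch held 2 ETS words. The RefSeq start of Cd3e lay inside the GENCODE gene, so the last bases of its stretch, chr9:45009612-45009627, overlapped the gene as placed above. The later ETS word of Cd3e lay mostly within these bases. No match overlapped another, and the RUNX word was in none of the 3. Of 32851 mouse promoters of the same length, 17.2% held the E box, 29.5% the ETS word, 14.0% the RUNX word, 13.8% the TCF word and 9.99% the GATA word. A match in this window is a description of the letters and not a site. Of the 10 genes, 5 had a promoter in the RefSeq table used here.

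The constant part of the receptor's beta chain is encoded by 2 genes, Trbc1 on chr6:41538218-41539881 and Trbc2 on chr6:41546730-41548352, both on the plus strand. Their coding parts were 518 bases each and shared 495 bases (95.6%), with 23 differences, and the longest identical run was 259 bases. The first 60 coding bases are the same in both genes, and the 90 coding bases from 400 to 489, counted from the first coding base, held 14 of the differences, shown in capitals.
Trbc1 and Trbc2, coding bases 1 to 60: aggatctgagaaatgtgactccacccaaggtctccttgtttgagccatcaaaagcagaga
Trbc1, chr6:41539235-41539324: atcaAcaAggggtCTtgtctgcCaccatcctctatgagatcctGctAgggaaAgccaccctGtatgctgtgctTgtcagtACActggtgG
Trbc2, chr6:41547778-41547867: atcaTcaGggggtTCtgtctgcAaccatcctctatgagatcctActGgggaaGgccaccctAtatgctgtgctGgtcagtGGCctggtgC
Reads from the shared stretches can belong to either gene, and the way the authors' counting handled such reads is not given in the sources used here, so the split between Trbc1 and Trbc2 is uncertain and their sum is the firmer value. The remaining genes were Trac on chr14:54220521-54224206, Cd4 on chr6:124864692-124888221, Cd8b1 on chr6:71322788-71337494, Cd8a on chr6:71373427-71379173 and Foxp3 on chrX:7573644-7595245. Cd8b1 ended 35933 bases before the start of Cd8a. Cd3e overlapped the antisense gene Gm48719, which had 24, 14, 52 and 3 reads in PBS-WT, BLEO-WT, PBS-HPS1 and BLEO-HPS1, and Foxp3 overlapped Ppp1r3f on the opposite strand, which had 197 to 317 reads. On the same strand, Foxp3 overlapped Flicr, with 43, 44, 58 and 14 reads in the same order. Cd3e overlapped Gm48720 on its own strand too, with 7, 1, 18 and 0 reads. Strand would not separate the reads of genes on the same strand. Whether the counting used strand is not given in the sources used here, so reads of all these overlapping genes may not be separable.

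The libraries held 72513619 to 87638154 reads in genes. Levels are given as CPM, read counts scaled to a common library size, after edgeR's trimmed mean of M values (TMM) scaling, whose factors ran from 0.816 in BLEO-HPS1 to 1.27 in PBS-HPS1. At this depth 3 reads, the upper limit of a count of 0, corresponded to 0.0303 to 0.0475 CPM. Hps1 itself, as a check of the genotype labels, was at 38.3 CPM in PBS-WT, 48.4 in BLEO-WT and 16.6 in PBS-HPS1, against 21.3 in BLEO-HPS1, so it was lower in both libraries labelled HPS1. Of all genes, 14840 reached 1 CPM in at least 1 library and were compared. The ratios moved with base composition and length. Across 11133 genes the Spearman correlation of the log2 ratio with the GC content of the longest transcript was 0.609 for BLEO-HPS1 over BLEO-WT, 0.602 for BLEO-HPS1 over PBS-HPS1, 0.485 for BLEO-WT over PBS-WT and -0.0726 for PBS-HPS1 over PBS-WT. With transcript length it was -0.493, -0.517, -0.256 and 0.429 for the same pairs. Each is a correlation across genes of 2 libraries, and genes are not independent replicates. Ratios corrected for GC content and length by a loess curve are therefore given beside the plain ones.

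The label of the cells was compared with marker genes, and levels between genes are given as CPM per kb of the longest transcript. The 10 T cell markers (the 6 CD3 and receptor constant genes, Cd247, Cd5, Cd6 and Cd28) had a median of 43.2 CPM per kb in PBS-WT, 32.6 in BLEO-WT and 29.1 in PBS-HPS1, against 59.8 in BLEO-HPS1. The 12 ILC2 markers, 11 of which passed the filter on low levels, had medians of 8.54, 7.42, 7.47 and 6.42 CPM per kb in the same order. In these libraries, sorted as CD3-negative, the T cell markers thus lay above most of the markers of the sorted cell type. Exceptions were Thy1, at 177, 129, 119 and 317 CPM per kb, and Id2, at 70.2, 103, 56.3 and 66.6. Both lay above the T cell median in every library. Il7r, at 50.7, 42.2, 57.9 and 21.7 CPM per kb, was above it in all but BLEO-HPS1. Levels per kb depend on the annotated length, which was 692 bases for Trbc2 and 5302 for Il1rl1. Il1rl1, which encodes T1/ST2 and was used in the sort, was at 40.9, 37.3, 39.9 and 23.8 CPM, and Gata3, a factor that ILC2s and helper T cells both need, was at 38.4, 25.1, 39.1 and 26.9 CPM. Thy1, the gene of the sorted Thy1.2 antigen and also a T cell gene, was at 306, 224, 206 and 551 CPM. The ILC2 cytokines Il5 and Il13 reached at most 1.06 and 1.43 CPM, both in PBS-HPS1. Cd3e had 2.04 reads for each read of Il1rl1 in PBS-WT (1.96 to 2.13), 1.87 in BLEO-WT (1.79 to 1.96) and 1.69 in PBS-HPS1 (1.63 to 1.76), against 5.66 in BLEO-HPS1 (5.36 to 5.98). Corrected for GC content and length as described later, BLEO-HPS1 had a log2 ratio over BLEO-WT of 1.17 for Cd3e and -0.01 for Il1rl1. Over PBS-HPS1 the corrected log2 ratios were 1.38 for Cd3e and 0.45 for Il1rl1, from plain ones of 0.99 and -0.75. The lower Il1rl1 level of BLEO-HPS1 than of PBS-HPS1 thus did not hold once corrected. The libraries are bulk RNA, so more T cells and more of these transcripts in each cell cannot be told apart.

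**Figure D1:**
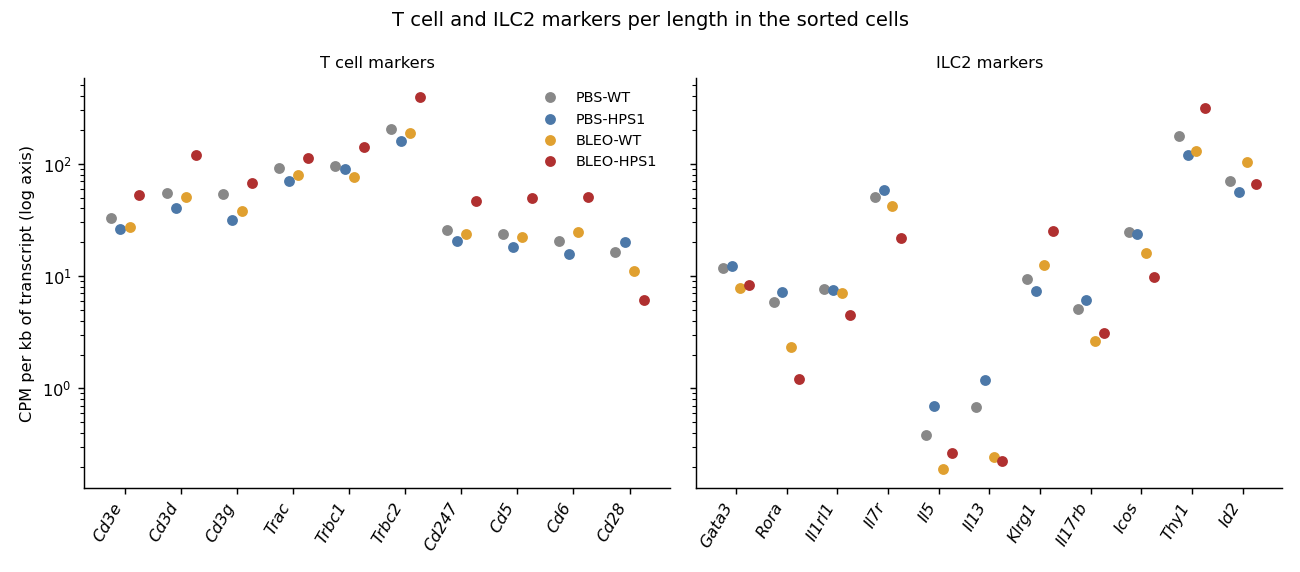
Levels of 10 T cell markers (left) and 11 ILC2 markers (right) in CPM per kb of the longest transcript on a log axis, 1 point per library. Trbc2 reached 393 CPM per kb in BLEO-HPS1, while Il5 and Il13 were the lowest of the markers shown in every library. A further ILC2 marker, below 1 CPM in every library, is in the medians of the text but not shown.

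Markers of further cell types were present as well. All 14 macrophage genes were detected, with summed levels of 16106 CPM in PBS-WT, 23710 in BLEO-WT and 11714 in PBS-HPS1, against 22229 in BLEO-HPS1. Itgam, which encodes the CD11b of the lineage cocktail, was at 99.8, 236, 61.5 and 151 CPM. The 12 B cell genes summed to 202, 226, 214 and 456 CPM, with Cd79a, a chain of the B cell receptor, at 23.7, 35.5, 30.2 and 124 CPM. The fibroblast genes summed to 1638, 11190, 1427 and 8869 CPM, led by Fn1, which macrophages make too. Their sum did not follow the single genes. In BLEO-HPS1 against BLEO-WT 10 of the 11 were higher, beside 7093 of all 14840 compared genes. Of the 11, 9 were at least 2-fold higher, where 6.73% of all compared genes were. The median log2 ratio was 1.80, or 1.42 once corrected for GC content and length, beside -0.04 and -0.07 over all compared genes. In PBS-HPS1 against PBS-WT it was 0.82 beside -0.19. The neutrophil genes summed to 1657, 923, 485 and 468 CPM and the endothelial genes to 940, 998, 884 and 1316 CPM. The epithelial genes summed to 1318, 762, 976 and 537 CPM. No marker in these lists was at 0 in every library. The part these cells had in the levels of the T cell genes was not tested.

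With TMM factors all 10 genes were highest in the BLEO-HPS1 library, while by total counts without these factors 7 of 10 were, with Cd3g and Trac highest in PBS-WT and Cd8a in PBS-HPS1. The lowest library depended on the scaling, since with TMM factors 9 of 10 were lowest in PBS-HPS1, the exception being Trbc1, and by total counts 8 of 10 were lowest in BLEO-WT and Cd4 and Foxp3 in PBS-HPS1. The summed level of the genes was 879 CPM in PBS-WT, 779 in BLEO-WT and 668 in PBS-HPS1, against 1394 in BLEO-HPS1. As a share of all reads, which uses no scaling factor, the 10 genes took 0.0945% in PBS-WT, 0.0697% in BLEO-WT and 0.0851% in PBS-HPS1, against 0.114% in BLEO-HPS1. The highest library exceeded the lowest by 1.40 times for Cd8a and by 2.99 times for Cd3d, with the other genes between these values. Per length, Trbc2 was the most abundant in every library, at 205, 188, 159 and 393 CPM per kb in the order PBS-WT, BLEO-WT, PBS-HPS1 and BLEO-HPS1, and Foxp3 the least, at 4.93, 7.18, 3.80 and 8.93 CPM per kb. Neighbours in this order whose counting intervals overlapped were Trbc1 and Trac, Cd3d and Cd3g, and Cd4 and Cd3e in PBS-WT, Cd8b1 and Cd3d, and Cd4 and Cd8a in PBS-HPS1, Trac and Trbc1 in BLEO-WT, and Cd3e and Cd4 in BLEO-HPS1.

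**Figure D2:**
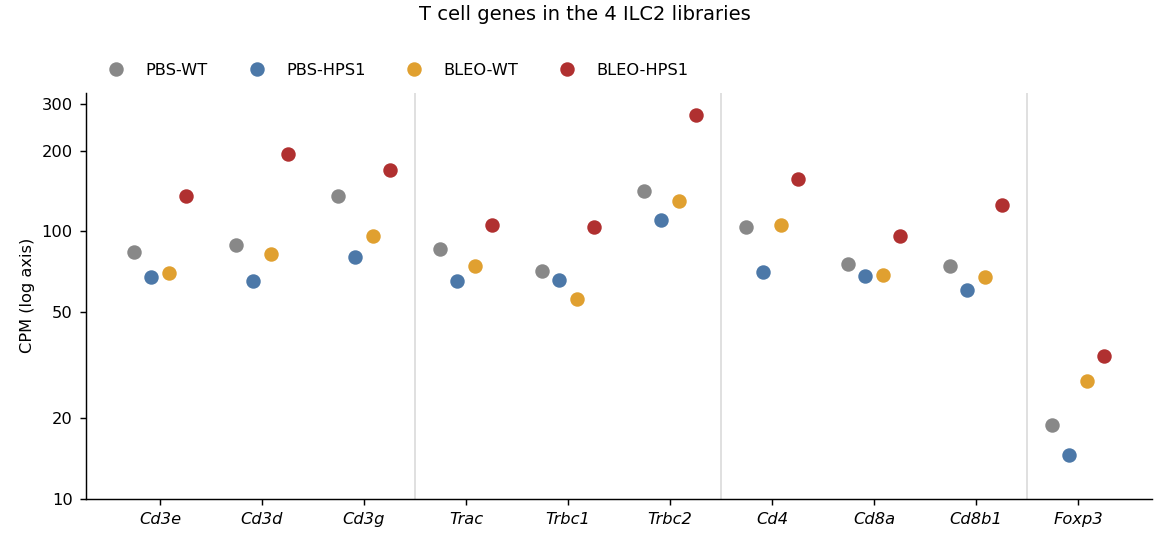
CPM of each of the 10 T cell genes on a log axis, 1 point per library, grouped into CD3 chains, receptor constant genes, coreceptors and Foxp3. With TMM factors the BLEO-HPS1 point is the highest for every gene (by total counts for 7 of 10), from 34.3 CPM for Foxp3 to 272 CPM for Trbc2.

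Among the CD3 chains, Cd3e, the epsilon chain found in both CD3 dimers, was at 83.5 CPM in PBS-WT, 69.9 in BLEO-WT and 67.6 in PBS-HPS1, against 135 in BLEO-HPS1. Cd3d, the delta chain, was at 88.6, 82.4, 65.2 and 195 CPM. Cd3g, the gamma chain, was at 136, 96.2, 80.4 and 170 CPM. For Cd3e and Cd3d the libraries other than BLEO-HPS1 lay close together, while Cd3g was also high in PBS-WT. The chains did not keep a fixed ratio: Cd3d had 1.06 reads per Cd3e read in PBS-WT (1.02 to 1.10), 1.18 in BLEO-WT (1.14 to 1.22) and 0.965 in PBS-HPS1 (0.932 to 0.999), against 1.45 in BLEO-HPS1 (1.41 to 1.49). Cd3g had 1.63 reads per Cd3e read in PBS-WT (1.58 to 1.68) and 1.19 to 1.38 in the other libraries. Cd247, which encodes the zeta chain of the same receptor and is not among the 10 genes, was at 75.7, 70.0, 61.1 and 138 CPM and kept nearly the ratio of Cd3e, with 0.907 reads per Cd3e read in PBS-WT (0.875 to 0.940), 1 in BLEO-WT (0.964 to 1.04) and 0.904 in PBS-HPS1 (0.873 to 0.937), against 1.03 in BLEO-HPS1 (0.996 to 1.06).

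For the receptor's own constant genes, Trac, the alpha chain, was at 85.9 CPM in PBS-WT, 74.0 in BLEO-WT and 65.1 in PBS-HPS1, against 106 in BLEO-HPS1. Trbc1 was at 71.1, 56.1, 65.6 and 104 CPM. Trbc2 was at 142, 130, 110 and 272 CPM, so that both beta genes together came to 213, 187, 176 and 376 CPM. Trbc2 stood further above the other libraries in BLEO-HPS1 than Trac did. There were 1.65 reads of Trbc2 per Trac read in PBS-WT (1.60 to 1.70), 1.76 in BLEO-WT (1.71 to 1.82) and 1.69 in PBS-HPS1 (1.64 to 1.75), against 2.57 in BLEO-HPS1 (2.5 to 2.64). Trbc1 had 0.501 reads per Trbc2 read in PBS-WT (0.485 to 0.518), 0.431 in BLEO-WT (0.415 to 0.446) and 0.595 in PBS-HPS1 (0.577 to 0.614), against 0.385 in BLEO-HPS1 (0.374 to 0.396). These intervals leave out the uncertainty from their shared sequence, whose size was not measured.

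Among the coreceptors, Cd4, carried by helper and regulatory T cells, was at 104 CPM in PBS-WT, 106 in BLEO-WT and 70.4 in PBS-HPS1, against 157 in BLEO-HPS1. Cd8a, the alpha chain of CD8, which some dendritic cells carry too, was at 75.3, 68.6, 68.3 and 95.8 CPM. Cd8b1, the beta chain that marks cytotoxic alpha beta T cells more strictly, was at 74.2, 67.8, 60.3 and 126 CPM. Reads of Cd8a per Cd4 read were 0.726 in PBS-WT (0.702 to 0.751), 0.645 in BLEO-WT (0.623 to 0.668) and 0.970 in PBS-HPS1 (0.938 to 1), against 0.608 in BLEO-HPS1 (0.589 to 0.628). Both CD8 chains and Cd4 were thus present at like read numbers in all libraries. Cd8b1 had 0.984 reads per Cd8a read in PBS-WT (0.949 to 1.02), 0.988 in BLEO-WT (0.951 to 1.03) and 0.883 in PBS-HPS1 (0.853 to 0.915), against 1.32 in BLEO-HPS1 (1.27 to 1.36). Clec9a, a marker of the dendritic cells that can carry Cd8a, was at 5.93, 2.28, 5.73 and 2.55 CPM, and that list of 9 genes summed to 555, 592, 478 and 759 CPM, led by Wdfy4 and Irf8, which are not particular to those cells. Foxp3 was at 18.9 CPM in PBS-WT, 27.5 in BLEO-WT and 14.6 in PBS-HPS1, against 34.3 in BLEO-HPS1. It was the only 1 of the 10 genes clearly higher in both bleomycin libraries than in both PBS libraries, beyond the counting error. Foxp3 had 0.182 reads per Cd4 read in PBS-WT (0.172 to 0.193), 0.259 in BLEO-WT (0.247 to 0.271) and 0.207 in PBS-HPS1 (0.196 to 0.219), against 0.218 in BLEO-HPS1 (0.208 to 0.228).

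The comparison of PBS-HPS1 with PBS-WT addresses the genotype without injury. All 10 genes were lower in PBS-HPS1, except Cd8a and Trbc1 by total counts and Trbc1 once corrected. Of all 14840 compared genes, 10499 were lower too. The median log2 ratio of the 10 genes was -0.37 beside -0.19 over all compared genes, a difference of -0.18. With the correction these medians were -0.23 and -0.22, a difference of -0.01. The largest difference was that of Cd3g, with a log2 ratio of -0.76 (-0.80 to -0.72), and the smallest that of Trbc1, at -0.12 (-0.17 to -0.06). These exceptions had log2 ratios of 0.10 for Cd8a and 0.13 for Trbc1 by total counts, and of 0.12 for Trbc1 with the correction. No gene of the 10 was at least 2-fold higher or lower, where 2.16% of all compared genes were higher by 2-fold or more and 3.11% lower by as much.

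The comparison of BLEO-WT with PBS-WT addresses bleomycin in wild-type mice. The median log2 ratio of the 10 genes was -0.13 beside 0.09 over all compared genes, a difference of -0.22. Foxp3 alone lay clearly above 0, at 0.54 (0.44 to 0.64), and Cd4 was at 0.04 (-0.01 to 0.08), or -0.23 by total counts. The other 8 genes had log2 ratios from -0.50 for Cd3g to -0.10 for Cd3d, and with the correction Cd3g was at 0.06 and Cd4 at -0.06. Of all 14840 compared genes, 6440 had a log2 ratio below 0. Again 0 of the 10 genes reached a 2-fold difference in either direction, where 5.28% of all compared genes were higher by 2-fold or more and 8.23% lower by as much.

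The comparison of BLEO-HPS1 with PBS-HPS1 addresses bleomycin in the mutant, and each of the 10 genes had its higher level in BLEO-HPS1, except Cd8a by total counts (-0.15) and Trbc1 once corrected (-0.18). Their median log2 ratio was 1.07 beside 0.25 over all compared genes, 0.82 above it. Of all 14840 compared genes, 8474 were higher. By total counts the median of all compared genes shifted to -0.43 and the 10 genes were 0.86 above it. Cd3d had the highest log2 ratio, 1.58 (1.53 to 1.62), followed by Trbc2 at 1.30 (1.27 to 1.34), Foxp3 at 1.23 (1.14 to 1.33), Cd4 at 1.16 (1.12 to 1.21), Cd3g at 1.08 (1.04 to 1.12) and Cd8b1 at 1.06 (1.01 to 1.11). These 6 genes were at least 2-fold higher, where 26.2% of all compared genes were higher by 2-fold or more and 19.6% lower by as much. None of the 10 was at least 2-fold lower. Cd3e was just under the threshold at 0.99 (0.95 to 1.04), and Trac, Trbc1 and Cd8a were at 0.70, 0.67 and 0.49. By total counts 0 of the 10 genes reached a 2-fold difference.

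The comparison of BLEO-HPS1 with BLEO-WT addresses the genotype after bleomycin, and it shares the BLEO-HPS1 library with the comparison before it. All 10 genes were again higher in BLEO-HPS1, with a median log2 ratio of 0.86 beside -0.04 over all compared genes, 0.90 above it. Of all 14840 compared genes, 7093 were higher. Cd3d at 1.24 (1.20 to 1.28) and Trbc2 at 1.06 (1.02 to 1.09) were at least 2-fold higher, which is 2 of 10 genes, where 6.73% of all compared genes were higher by 2-fold or more and 10.3% lower by as much. The next were Cd3e at 0.95 (0.90 to 0.99), Trbc1 at 0.90 (0.84 to 0.95), Cd8b1 at 0.89 (0.84 to 0.94) and Cd3g at 0.82 (0.78 to 0.86). Cd4, Trac, Cd8a and Foxp3 were at 0.57, 0.52, 0.48 and 0.32. All 10 log2 ratios stayed above 0 here by total counts and with the correction given next.

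**Figure D3:**
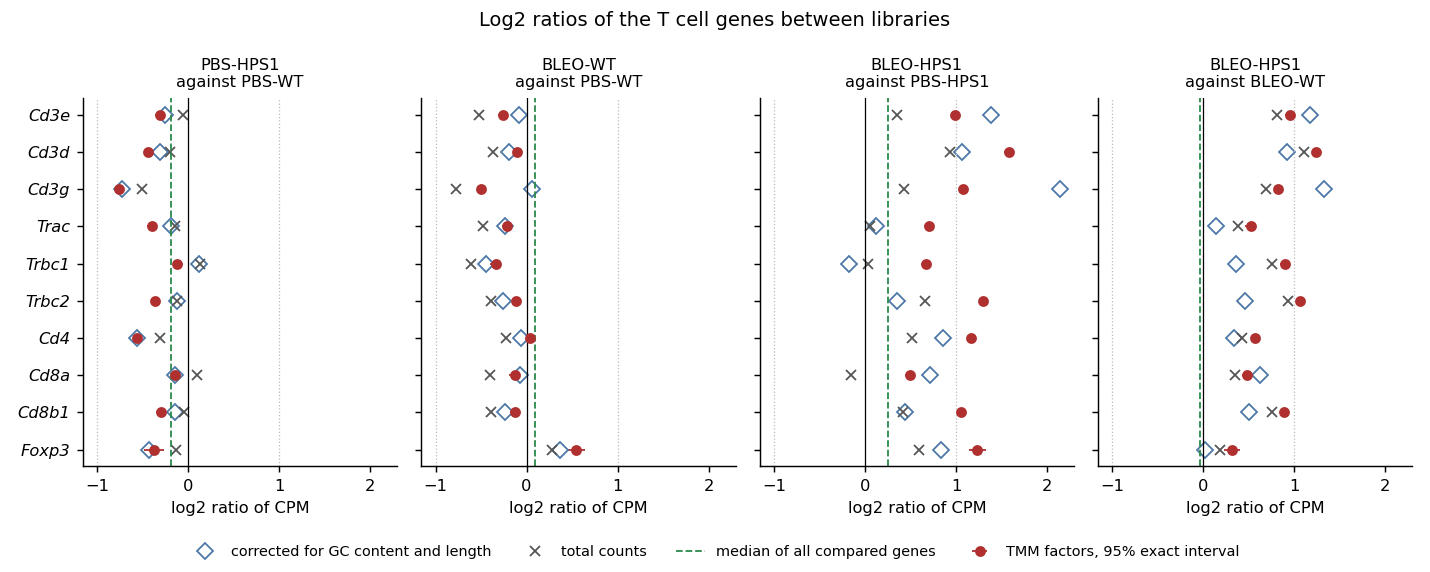
Log2 ratios of the 10 T cell genes in the 4 comparisons, as TMM-scaled values with 95% exact counting intervals (filled), after correction for GC content and length (diamonds) and by total counts (crosses), with the median of all compared genes as a dashed line. All filled points lie above 0 in both comparisons with BLEO-HPS1, from 0.32 for Foxp3 against BLEO-WT to 1.58 for Cd3d against PBS-HPS1, while Cd8a by total counts and Trbc1 once corrected lie below 0 against PBS-HPS1.

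The correction for GC content and length changed which genes stood out. In BLEO-HPS1 against PBS-HPS1 the median of the 10 genes went from 1.07 to 0.78, and it was 0.50 above the median of all compared genes. The CD3 chains became the highest, with corrected log2 ratios of 2.14 for Cd3g, 1.38 for Cd3e and 1.07 for Cd3d. The receptor constant genes, whose annotated transcripts are the shortest of the 10, fell to the bottom of the order. They were at 0.35 for Trbc2, 0.12 for Trac and -0.18 for Trbc1. Those transcripts hold the constant segment alone, while variable and joining segments are listed as separate genes. Corrected values of Trac, Trbc1 and Trbc2, here and elsewhere, rest on that length and GC content and are less certain. Cd4, Foxp3, Cd8a and Cd8b1 were at 0.86, 0.84, 0.72 and 0.44. The higher ratio of Cd3d than of Cd3e, and of Cd8b1 than of Cd8a, thus turned round once corrected, while Trbc2 stayed above Trac. In BLEO-HPS1 against BLEO-WT the corrected median was 0.48, again with Cd3g, Cd3e and Cd3d highest at 1.33, 1.17 and 0.92 and with Foxp3 lowest at 0.02. Cd3g has the lowest GC content of the 10 genes, 38.5%, and Foxp3 the highest, 55.0%, while Trbc2 has the shortest annotated transcript, 692 bases.

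**Figure D4:**
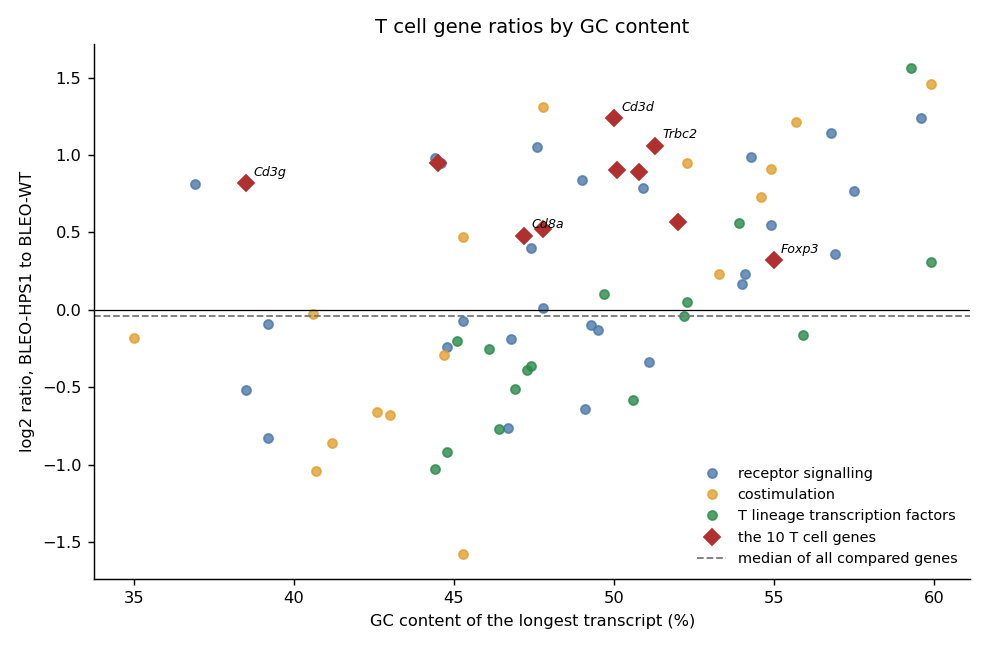
Log2 ratio between BLEO-HPS1 and BLEO-WT against the GC content of the longest transcript for the 10 T cell genes (diamonds) and for genes of receptor signalling, costimulation and the T lineage transcription factors (points), with the median of all compared genes, -0.04, as a dashed line. The 10 genes lie above 0 over their whole range of GC content, 38.5% to 55.0%, whereas the points of the other lists below 0 are mostly at lower GC content.

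The variable segments of the receptor were counted too, since the table lists them as genes. All 270 T cell receptor genes together took 0.0593% of the reads in PBS-WT, 0.0392% in BLEO-WT and 0.0531% in PBS-HPS1, against 0.0613% in BLEO-HPS1. Alpha V segments summed to 33.8, 30.7, 25.9 and 40.9 CPM in this order, and beta V segments to 95.8, 83.7, 68.6 and 167 CPM. The reads were spread over many segments: of 128 alpha V genes, 57, 55, 58 and 59 had at least 10 reads, and none held more than 4.65% of the alpha V reads of its library. The leading alpha V gene was Trav13-1 in both PBS libraries and Trav14-2 in both bleomycin libraries, where it led Trav13-1 by 106 to 96 reads and by 120 to 112 reads, within the counting error. Of 35 beta V genes, 22, 22, 23 and 21 had at least 10 reads, and Trbv13-2 led in every library with 18.4%, 14.5%, 18.2% and 19.4% of the beta V reads. Trbv13-2 was at 17.7, 12.1, 12.5 and 32.5 CPM.

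Gamma delta genes had another order, with their highest levels in PBS-WT. Trdc, the delta constant gene, was at 32.1 CPM in PBS-WT, 17.0 in BLEO-WT and 14.3 in PBS-HPS1, against 12.4 in BLEO-HPS1, so the library highest for all 10 genes with TMM factors was the lowest for Trdc. The gamma constant genes summed to 41.0, 16.9, 21.9 and 21 CPM. Per read of Trac, Trdc had 0.374 reads in PBS-WT (0.357 to 0.391), 0.230 in BLEO-WT (0.216 to 0.244) and 0.219 in PBS-HPS1 (0.207 to 0.232), against 0.117 in BLEO-HPS1 (0.108 to 0.126). These ratios are within a library and need no scaling factor, but Trdc and Trac differ in annotated length. Corrected for it and for GC content, the log2 ratio of BLEO-HPS1 to PBS-HPS1 was 0.27 for Trdc and 0.12 for Trac. The lower Trdc ratio of BLEO-HPS1 thus did not hold there, and against BLEO-WT the log2 ratios were -0.17 and 0.14. As for Trac, the annotated Trdc transcript holds the constant segment alone, so these corrected values are less certain. Over the variable segments, gamma and delta together had 0.205 reads per alpha or beta read in PBS-WT (0.195 to 0.215), 0.120 in BLEO-WT (0.113 to 0.128) and 0.114 in PBS-HPS1 (0.107 to 0.122), against 0.0518 in BLEO-HPS1 (0.0479 to 0.0559). The values for PBS-WT and BLEO-HPS1 stood apart on either side, and those of PBS-HPS1 and BLEO-WT overlapped in their intervals. Trdv4 had 892, 457, 252 and 156 reads and Tcrg-V6 had 331, 209, 71 and 46 reads, segments that pair in a lung-resident gamma delta subset. Both were lower in the HPS1 library than in the WT library under PBS, with log2 ratios of -2.17 (-2.38 to -1.97) and -2.57 (-2.96 to -2.19), and after bleomycin, with -1.24 (-1.51 to -0.97) and -1.87 (-2.37 to -1.41). Against PBS-HPS1, the BLEO-HPS1 library had log2 ratios of -0.04 for Trdv4 and 0.02 for Tcrg-V6, whose intervals include 0.

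**Figure D5:**
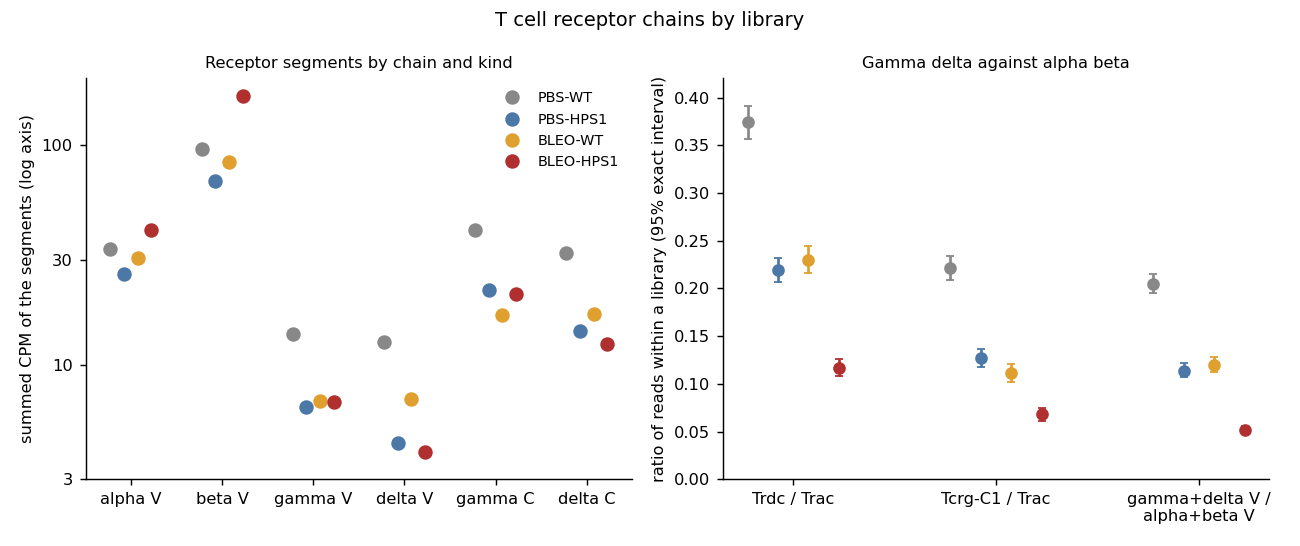
Left, summed CPM of the variable (V) and constant (C) genes of the receptor chains on a log axis, 1 point per library. Right, reads of gamma and delta genes per read of alpha and beta genes within each library, with 95% exact intervals; PBS-WT is the highest and BLEO-HPS1 the lowest in all 3 ratios.

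The genes that carry the receptor's signal were mixed. For all lists below, the medians of all compared genes are those given above. Of 27 compared signalling genes, 7 exceeded their PBS-HPS1 level by 2-fold or more in BLEO-HPS1 and 2 were lower by as much, where 26.2% and 19.6% of all compared genes did so, with a median log2 ratio of 0.37 beside 0.25 over all compared genes. Against BLEO-WT, 3 were at least 2-fold higher and 0 lower, beside 6.73% and 10.3% of all compared genes, with a median of 0.23. Zap70, the kinase that docks on the CD3 and zeta chains, was at 85.8, 79.1, 72.1 and 187 CPM in PBS-WT, BLEO-WT, PBS-HPS1 and BLEO-HPS1. Cd6, a receptor that tunes T cell activation, was at 96.2, 115, 74.1 and 237 CPM, and Cd5, a related inhibitory receptor, at 70.7, 66.7, 54.7 and 147 CPM. With TMM factors these 3 genes were highest in BLEO-HPS1 and lowest in PBS-HPS1, while by total counts Zap70 and Cd5 were lowest in BLEO-WT. The plain levels of some others were lowest in BLEO-HPS1. Themis, needed for T cell development, was at 35.8, 13.6, 34.5 and 9.50 CPM, and Trat1, an adaptor of the receptor complex, at 7.91, 4.48, 9.84 and 2.5 CPM. Corrected for base composition and length, the log2 ratios of BLEO-HPS1 to PBS-HPS1 were -0.20 for Themis and -0.45 for Trat1, from -1.86 and -1.96. They were 0.59 for Zap70, 2.24 for Cd6 and 0.86 for Cd5, from 1.38, 1.68 and 1.43. In the comparisons of PBS-HPS1 and of BLEO-WT with PBS-WT, the signalling genes had medians of -0.24 and -0.16, with 0 and 1 gene at least 2-fold lower, beside 3.11% and 8.23% of all compared genes, and 0 higher.

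Of 16 compared costimulatory and inhibitory receptors, 6 exceeded their PBS-HPS1 level by 2-fold or more in BLEO-HPS1 and 4 were lower by as much, beside 26.2% and 19.6% of all compared genes. Their median log2 ratio was -0.33, but 0.39 once corrected. Then 2 were at least 2-fold higher and 1 lower, beside 2587 and 1279 of all compared genes. Against BLEO-WT the plain numbers were 3 and 2, beside 6.73% and 10.3% of all compared genes, with a median of 0.10. Lag3, an inhibitory receptor related to Cd4, was at 8.04, 6.84, 4.33 and 18.9 CPM, and Tnfrsf18, which encodes GITR, a receptor abundant on regulatory T cells, at 28.2, 36.9, 25.6 and 85.4 CPM. Cd28, the main costimulatory receptor, was lowest in BLEO-HPS1, at 71.1, 48.0, 86.9 and 26.4 CPM, as was Icos, used in the sort, at 79.9, 51.4, 77.5 and 32.1 CPM. The corrected log2 ratios of BLEO-HPS1 to PBS-HPS1 were -0.46 for Cd28 and -0.51 for Icos, from -1.72 and -1.27. For Lag3 and Tnfrsf18 they were 1.26 and 0.71, from 2.12 and 1.74.

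The list of regulatory T cell genes besides Foxp3 had a median log2 ratio of 0.39 in BLEO-WT against PBS-WT, where 2 of 15 were at least 2-fold higher and 1 lower, beside 5.28% and 8.23% of all compared genes. It was 0.54 in BLEO-HPS1 against PBS-HPS1, where 7 were higher and 1 lower, beside 26.2% and 19.6%. Between the genotypes the medians were -0.21 under PBS and -0.22 after bleomycin. Izumo1r, a folate receptor found on regulatory T cells, was at 13.3, 19.2, 9.64 and 43.2 CPM, while Ikzf2, which encodes Helios, was at 25.2, 10.4, 25.8 and 4.80 CPM. Once corrected, the log2 ratio between BLEO-HPS1 and PBS-HPS1 was 1.14 for Izumo1r, from 2.16, and -0.46 for Ikzf2, from -2.42, and that of Ikzf2 between BLEO-WT and PBS-WT was -0.43, from -1.28. Il10, a cytokine that many immune cells make, was at 3.49, 15.1, 2.99 and 11.6 CPM, with both bleomycin libraries above both PBS libraries.

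Of the cytotoxic genes besides the coreceptors, all 14 had a higher level in BLEO-HPS1 than in BLEO-WT, beside 7093 of all 14840 compared genes. Of the 14, 7 were at least 2-fold higher, where 6.73% of all compared genes were. The median log2 ratio of the list was 1.12, or 0.97 once corrected. In BLEO-WT against PBS-WT all 14 were lower, except Klrd1 once corrected (0.14), beside 6440 of all compared genes. Of the 14, 7 were at least 2-fold lower, where 8.23% of all compared genes were. The median of the list was -1.07, or -0.94 once corrected. These comparisons share the BLEO-WT library, in which the list was lowest. Gzma, a granzyme of cytotoxic T cells and natural killer cells, was at 58.2, 23.5, 87.3 and 141 CPM, and Gzmk at 4.18, 1.56, 2.49 and 9.97 CPM. Ccl5, a chemokine of the same cells, was at 82.9, 45.9, 76.1 and 167 CPM. The 12 natural killer cell genes summed to 175, 88.2, 293 and 263 CPM. Of these, 4 (Eomes, Gzma, Prf1 and Txk) also stand in the T cell lists. Gzma alone made up 141 CPM of the BLEO-HPS1 sum. With BLEO-WT as the base, 11 of the 12 rose in BLEO-HPS1, 7 of them at least 2-fold. Their median log2 ratio was 1.06, or 1.11 once corrected. With PBS-HPS1 as the base, 11 fell, beside 6364 of all compared genes. That median was -0.97, or -0.64 once corrected. In BLEO-WT against PBS-WT all 12 fell, with a median of -1.37. The part of natural killer cells in the levels of the cytotoxic genes was not tested. Under PBS and in the mutant after bleomycin the cytotoxic list had medians of 0.13 in both comparisons.

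Transcription factors of the T lineage, 16 of them compared, had median log2 ratios of -0.13, -0.14, -0.47 and -0.22 for PBS-HPS1 over PBS-WT, BLEO-WT over PBS-WT, BLEO-HPS1 over PBS-HPS1 and BLEO-HPS1 over BLEO-WT. Tbx21, which encodes the cytotoxic and type 1 helper factor T-bet, was at 20.9, 9.34, 17.4 and 27.6 CPM and was the 1 factor whose BLEO-HPS1 level exceeded that of BLEO-WT by 2-fold or more, while Tcf12 was the 1 factor lower by as much, at a log2 ratio of -1.03, beside 6.73% and 10.3% of all compared genes. Against PBS-HPS1, 0 factors were at least 2-fold higher and 4 lower, beside 26.2% and 19.6%. Once corrected, 0 were higher and 2 lower, beside 2587 and 1279 of all compared genes, and their median was -0.16. Against BLEO-WT the corrected log2 ratio was 1.02 for Tbx21 and -0.37 for Tcf12, and 0 factors were then at least 2-fold lower. Ets1 was the most abundant, at 515, 411, 576 and 314 CPM, and Tcf7, needed for T cells and innate lymphoid cells alike, was at 286, 314, 257 and 324 CPM. Of 9 genes of naive and recirculating T cells, the medians were 0.03, 0.04, 0.15 and 0.10. Ccr7, the homing receptor for lymph nodes, was at 170, 270, 215 and 411 CPM, and Igfbp4, which fibroblasts also make, at 120, 297, 116 and 662 CPM.

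By its profile over the 4 libraries, the median of the 10 genes on the log2 scale, centred on its mean, was -0.03 in PBS-WT, -0.22 in BLEO-WT and -0.43 in PBS-HPS1, against 0.59 in BLEO-HPS1. Likeness to it was measured as the root mean squared difference of centred log2 CPM over the 4 libraries, among 10701 genes with a mean of at least 5 CPM. The 5 genes outside the lists with the most alike profile were Tapbpl (0.030), Clec2d (0.030), Gstk1 (0.035), Arpin (0.040) and Trappc5 (0.049). Clec2d, a ligand of a natural killer cell receptor, was at 34.9, 29.8, 25.9 and 54.1 CPM. The 10 genes themselves had values from 0.058 for Cd8b1 to 0.296 for Foxp3, and only Cd8b1 and Cd3e (0.065) were within 0.1. Outside the lists 77 genes of this level were within 0.1, a count that did not leave out receptor segments. The profile was thus not particular to the T cell genes.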

How the data were processed

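RNA of sorted lung ILC2s was amplified and made into libraries with a SMARTER mRNA-Seq kit by the authors, who deposited whole-number read counts per gene, not normalized, for 4 libraries. The aligner, counter, genome build, annotation and use of strand are not given in the sources used here. Gene IDs were matched to GENCODE M21 (49056 of 49315). Counts were scaled with edgeR 4.0.16 TMM factors in R 4.3.3. Log2 CPM used a prior count of 2, genes with at least 1 CPM in at least 1 library were compared, and a 2-fold difference was called. Because each group had 1 library, no count model was fitted. Intervals of ratios are exact Clopper-Pearson binomial ones, and those of levels exact Poisson ones. Loess curves (span 0.3) corrected ratios for transcript GC content and length. Alternatives were DESeq2 1.42.0 size factors, total counts, TMM factors without receptor and immunoglobulin genes, other prior counts, filters and thresholds. The code was tested on simulated data.

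The 10 genes and the lists were chosen with earlier results of these data known. From each list the text may name up to 4 genes of highest CPM, up to 2 of the largest ratio per direction and comparison, the sort genes, the leading receptor segments and 5 genes of alike profile. Cd247, Itgam and the genes overlapping Cd3e and Foxp3 are outside that rule and were named for their role after their values were seen. A few listed genes are not reported here.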

Additional observations from a re-analysis of the deposited data

Results flagged for a closer look

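For 8 of the 10 genes the bleomycin library was lower than the PBS library in wild-type mice and higher in Hps1-/- mice, 1 library each. Of all 14840 compared genes, 6440 were lower in BLEO-WT than in PBS-WT and 8474 were higher in BLEO-HPS1 than in PBS-HPS1. The share of all compared genes with both was not counted, so the number of opposite signs has no background beside it. The log2 ratio in the HPS1 libraries minus that in the WT libraries was 1.68 for Cd3d, 1.58 for Cd3g, 1.42 for Trbc2, 1.25 for Cd3e, 1.19 for Cd8b1, 1.01 for Trbc1, 0.91 for Trac and 0.62 for Cd8a. With 1 library in a group this difference was not tested. Cd4 and Foxp3 did not share the opposite signs, their log2 ratios being above 0 in both genotypes, and their differences were 1.13 and 0.69. The median difference of the 10 genes was 1.16 beside 0.15 over all compared genes, and 0.73 beside 0.17 after correction for GC content and length, when 7 genes had opposite signs (without Cd3g and Trbc1, and with Cd4). By total counts 8 genes had opposite signs, with Cd4 in place of Cd8a.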

How the results depend on the processing

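The number of the 10 genes at least 2-fold higher in BLEO-HPS1 than in PBS-HPS1 was 6, beside 26.2% of all compared genes. It was 0 by total counts and 0 at a log2 threshold of 2. Once ratios were corrected for GC content and transcript length it was 3 (Cd3g, Cd3e and Cd3d), beside 2587 of all 14840 compared genes. Against BLEO-WT the number was 2, beside 6.73% of all compared genes, and it was 1 by total counts and 0 at a log2 threshold of 2. Once corrected it was 2 as well (Cd3g and Cd3e), beside 748 of all compared genes. The shares of all compared genes by total counts and at a log2 threshold of 2 were not counted. By total counts 4 of the 40 log2 ratios took the other sign, with shifts from -0.65 to 0.25, and after the correction 4 of 40, with shifts from -0.95 to 1.06, of which in each case 1 was in BLEO-HPS1 against PBS-HPS1 and 0 against BLEO-WT. DESeq2 size factors, TMM factors without receptor genes, other prior counts and other filters turned 0 of 40 signs. The median of the 10 genes was 0.82 above that of all compared genes in BLEO-HPS1 against PBS-HPS1 and 0.90 above it against BLEO-WT, and 0.86 and 0.90 above it by total counts, which moved the medians of all compared genes themselves to 0.06, -0.18, -0.43 and -0.18 in the 4 comparisons. No paired analysis was possible because each group had 1 library. Each of the 10 genes had at least 1443 reads in every library, and there were no replicates.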

Other observations

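Joining segments of the alpha chain had 557 reads in PBS-WT, 289 in BLEO-WT and 966 in PBS-HPS1, against 121 in BLEO-HPS1, and their log2 ratio was -2.35 (-2.63 to -2.07) in BLEO-HPS1 against PBS-HPS1, where that of the alpha V segments was 0.66 (0.58 to 0.74). Joining segments of the beta chain had 909, 720, 2014 and 751 reads. The reads on the antisense gene Gm48719 within Cd3e, 24, 14, 52 and 3, had their highest and lowest values in the same libraries as the alpha joining segments.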
